A study of Mus musculus with 24 samples.

Results

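Myeloid lineage transcription factors are the DNA-binding proteins that direct the formation and state of macrophages, dendritic cells and granulocytes. The 9 genes described here were Spi1, Cebpa, Cebpb, Maf, Irf4, Irf8, Klf4, Egr2 and Bhlhe40. They were taken by symbol from a table of 55421 mouse genes, without use of any measured value, and all 9 passed the filter on low counts. The table held RNA-seq read counts of 24 libraries of bone marrow-derived macrophages (BMDMs), cells grown from mouse bone marrow, in 4 groups of 6. Cells of wildtype (WT) mice or of mice carrying a germline knockout of the aryl hydrocarbon receptor (AhR-KO, hereafter AhR-deficient) were either unstimulated or stimulated for 24 h from day 6 with 97 EU/ml of lipopolysaccharide (LPS), a bacterial cell wall component. All 4 groups were differentiated with 10 ng/ml GM-CSF and 2 ng/ml TGF-β, which give alveolar-like macrophages, and the treatment text of every sample also names 5 µM of the calcium ionophore A23187 for 10 min before harvest. The receptor was missing from every cell of the knockout animals, so the cultures lacked it throughout differentiation.

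AhR is a transcription factor that, once bound by a ligand, responds to environmental and dietary compounds. Spi1 encodes PU.1, the ETS factor that opens myeloid enhancers, and C/EBPα and C/EBPβ cooperate with it in the formation of granulocytes and macrophages and in inflammatory gene expression. IRF4 and IRF8 are related interferon regulatory factors that bind DNA together with PU.1 or AP-1 proteins, and they direct different types of dendritic cell. KLF4, c-MAF, EGR2 and BHLHE40 set later programs in macrophages, among them monocyte differentiation, Il10 expression, the alternatively activated state and proliferation.

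The libraries held 45106052 to 76992663 counted reads, and between 17412 and 20989 genes had a count. AhR-deficient libraries had less Ahr RNA than WT libraries without stimulation (log2 fold change −1.93, adjusted p = 9.7e-04), but more after LPS (1.36, adjusted p = 0.011), the opposite of the label. Counts over the whole gene cannot tell an intact from a disrupted transcript. The AhR repressor gene Ahrr, a direct AhR target chosen for this check after its values were seen, was lower in the libraries labelled AhR-deficient in both states (log2 fold change −6.34 without stimulation and −8.19 after LPS). Genotypes are therefore those of the labels. The dependence of read count on gene length differed between libraries, with slopes of log2 CPM (the read count scaled to library size, with TMM factors) on log2 length from 0.0952 to 0.585. In 4 libraries the slope was under 0.2, and library 33 (WT unstimulated), library 19 (AhR-deficient unstimulated) and library 39 (AhR-deficient, LPS) of these had the lowest level of their group for 8, 7 and 7 of the 9 factors. Without these 4 libraries the number of factors called stayed at the same value in each of the 5 comparisons.

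A gene was called where the adjusted p (edgeR quasi-likelihood test, adjusted over 16593 genes) was at most 0.05 and the fold change at least 2. For the difference between the LPS responses of the genotypes, the interaction, no minimum fold change was set. After LPS, 3 of the 9 factors were called between genotypes, while 8.36% of all tested genes were. Irf8 was lower (6.19% of all genes were called lower), and Irf4 and Egr2 were higher in AhR-deficient BMDMs (2.17% were called higher). That count was 1, Irf8 alone, without WT LPS library 38 or when libraries were scaled by their totals alone. It was also 1 without libraries 38 and 34 together, the 2 WT libraries with under 10 Y-linked counts. It was 2 by limma-voom and 4, with Klf4 added, with the length slope as a covariate. Without stimulation 0 of 9 were called between genotypes by edgeR, DESeq2 or limma-voom, with 4.48% of all genes called by edgeR, and 3 of 9 (Cebpa, Egr2 and Irf8) had an unadjusted p under 0.05, as had 14.0% of all genes. LPS changed 6 of 9 in WT cells (24.9% of all genes) and 5 of 9 in AhR-deficient cells (30.8%), or 4 of 9 in each when libraries were scaled by their totals alone. Irf8 was the only one of the 9 whose LPS response differed between genotypes, 1 of 9 against 4.30% of all genes, though Irf4 and Egr2 joined it with the length slope as a covariate.

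**Figure D1:**
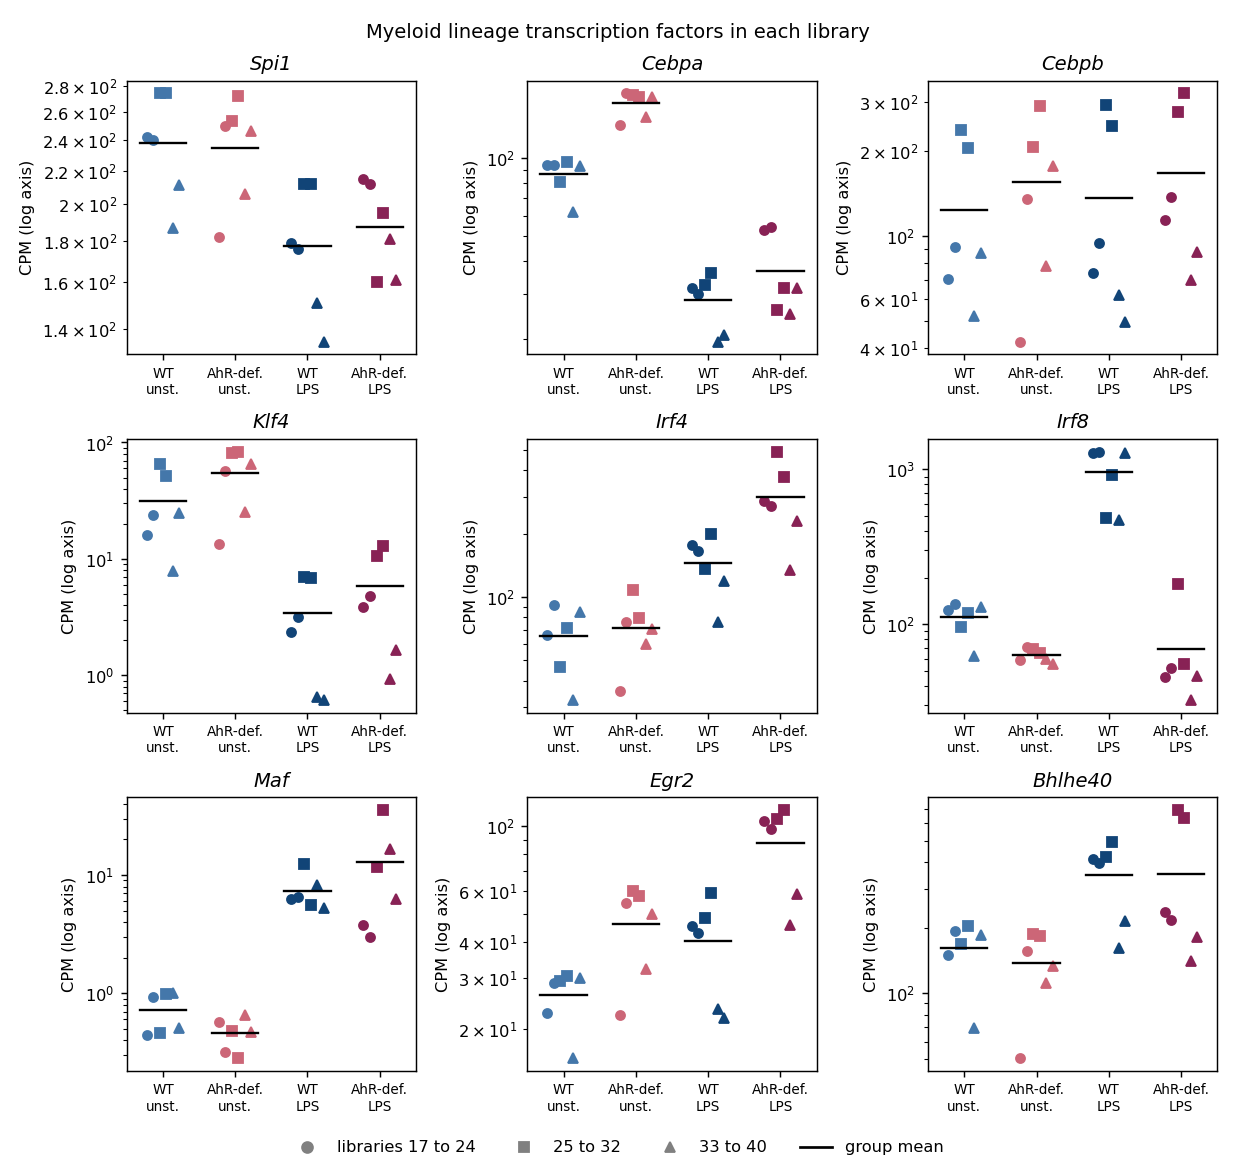
Level of each of the 9 factors in every library, in CPM on a logarithmic axis, by group (unst., unstimulated; AhR-def., AhR-deficient). Symbols mark 3 runs of 8 consecutive library numbers and black lines the group means. Irf8 after LPS lies between 474 and 1303 CPM in WT and between 32.4 and 183 CPM in AhR-deficient libraries.

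After LPS, Irf8 had the largest genotype difference of the 9 factors. The gene (ENSMUSG00000041515, chromosome 8, 120736358 to 120756694, plus strand of mm10) has 11 exon blocks and encodes the factor required for the type 1 conventional dendritic cell and for the monocyte branch over the neutrophil branch. In unstimulated WT libraries Irf8 ranged from 62.9 to 135 CPM with a median of 121, and in unstimulated AhR-deficient libraries from 55.3 to 71.5 CPM with a median of 62.2. Those groups overlapped. After LPS, WT libraries ranged from 474 to 1303 CPM (median 1098) and AhR-deficient libraries from 32.4 to 183 CPM (median 49.2), so that the 6 AhR-deficient libraries all lay below the lowest WT library. For groups without overlap in this comparison the share over all genes was 7.11%, and Irf8 was the only one of the 9 factors among them.

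The Irf8 difference after LPS was −3.79 on the log2 scale (standard error 0.38, adjusted p = 3.1e-07), or 13.8-fold lower in AhR-deficient cells, and ranked 56th of the 16593 genes by p. Without stimulation it was −0.81 (95% confidence interval −1.53 to −0.10, adjusted p = 0.24). With 1 library left out this value ranged from −0.93 to −0.75 (edgeR, adjusted p from 0.0436 to 0.394), under the 2-fold limit. In WT cells Irf8 rose 8.60-fold with LPS (log2 fold change 3.10, standard error 0.37, adjusted p = 3.9e-07). In AhR-deficient cells the log2 fold change was 0.13 (95% confidence interval −0.58 to 0.84, adjusted p = 0.798). The LPS responses differed by −2.97 (standard error 0.49, adjusted p = 7.8e-04), the 86th smallest p of all genes. Within the 3 runs of 8 library numbers, each with 2 libraries per group, the genotype difference after LPS was −4.71, −2.72 and −4.31. The AhR-deficient LPS library 31, at 183 CPM, lay apart from the other 5, and without it the difference was −4.37 and the response of AhR-deficient cells −0.44 (adjusted p = 0.173).

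Irf4 (ENSMUSG00000021356, chromosome 13, 30749226 to 30766976, plus strand), the paralog that directs type 2 conventional dendritic cells and alternatively activated macrophages, went the other way. It ranged from 32.3 to 91.2 CPM (median 68.6) in unstimulated WT and from 35.6 to 108 CPM (median 73.1) in unstimulated AhR-deficient libraries. The 2 genotypes overlapped almost fully there. After LPS the ranges were 75.8 to 199 CPM (median 150) in WT and 134 to 491 CPM (median 278) in AhR-deficient libraries, 5 of 6 of which lay above every WT library.

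LPS raised Irf4 in both genotypes, by 1.15 (adjusted p = 0.00405) in WT and by 2.06 (adjusted p = 7.9e-06) in AhR-deficient cells on the log2 scale. The WT call was lost when libraries were scaled by their totals alone (0.81). After LPS it was 2.05-fold higher in AhR-deficient than in WT libraries (log2 fold change 1.03, standard error 0.30, adjusted p = 0.0246). That call lay close to the 2-fold limit and was lost in 4 of 24 fits with 1 library left out (without library 31, 32, 37 or 38; 0.83 to 0.98), with scaling by library totals (0.80) and by limma-voom (0.99). The interaction of Irf4 was 0.91 and did not pass the correction (adjusted p = 0.349). Irf4 and Irf8 thus differed between genotypes in opposite directions in the same libraries.

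The promoter bases of this pair are shown because their genes moved in opposite directions with AhR loss, and capitals mark GCGTG or its complement CACGC, the core sequence that AhR binds together with ARNT. The sequences are from RefSeq on GRCm38.p6, plus strand, 5′ to 3′. The stretches of 250 bases end at the base before the annotated start, and the short one covers bases 21 to 50 after it.
Irf8, chr8:120736108-120736357: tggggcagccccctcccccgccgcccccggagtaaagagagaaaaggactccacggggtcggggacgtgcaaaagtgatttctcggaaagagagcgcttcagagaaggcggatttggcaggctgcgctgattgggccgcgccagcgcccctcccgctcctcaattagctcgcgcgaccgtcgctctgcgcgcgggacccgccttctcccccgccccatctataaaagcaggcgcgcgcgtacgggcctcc
Irf8, chr8:120736378-120736407: ggaggcgcgggcaGCGTGggaaccggcggc
Irf4, chr13:30748983-30749232: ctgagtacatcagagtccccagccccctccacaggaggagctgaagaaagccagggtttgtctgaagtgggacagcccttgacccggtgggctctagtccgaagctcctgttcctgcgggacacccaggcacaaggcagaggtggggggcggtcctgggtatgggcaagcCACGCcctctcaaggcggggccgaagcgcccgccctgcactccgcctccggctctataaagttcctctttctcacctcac

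Irf8 held 1 match, beginning 34 bases after the start, and Irf4 held 1 on the minus strand 80 bases before it. RefSeq promoters of 300 bases were at hand for 6 of the 9 genes (Cebpa, Cebpb, Irf4, Irf8, Klf4 and Egr2). On both strands, GCGTG was found in 3 of the 6 genes (Irf8, Irf4 and Cebpb) and in 32.4% of all 32851 promoters. The PU.1 core GAGGAA was found in Irf4 and Egr2 and in 28.3% of all promoters, and the KLF core CACCC in 4 of the 6 genes and in 57.5%, while the E box CACGTG was found in Klf4 and Egr2 and in 7.15%. The C/EBP motif TTNNGNAA was found in 1 of the 6 genes (Egr2) and in 40.7% of all promoters. The IRF motif, GAAA followed after 2 bases by another GAAA, was found in 0 of the 6 and in 3.44% of all promoters. Over the 11 promoter windows of the 6 genes, which like all promoters are counted per start site, 3 held GCGTG, 5 GAGGAA, 7 CACCC, 2 CACGTG, 1 the C/EBP motif and 0 the IRF motif. These are matches of letters only.

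Spi1 (ENSMUSG00000002111, chromosome 2, 91082390 to 91115756, plus strand), the factor on which all myeloid lineages depend, was called in none of the 5 comparisons. Its libraries ranged from 187 to 274 CPM (median 241) in unstimulated WT, 182 to 272 (median 248) in unstimulated AhR-deficient, 135 to 212 (median 178) in WT LPS and 160 to 215 (median 188) in AhR-deficient LPS. All neighbouring groups overlapped. The log2 difference between genotypes was −0.02 without stimulation (95% confidence interval −0.30 to 0.26) and 0.08 after LPS (−0.21 to 0.36). With LPS the log2 fold change was −0.42 in WT (adjusted p = 0.0173), below the 2-fold limit, and −0.33 in AhR-deficient cells (adjusted p = 0.0567). Spi1 varied least of the 9 around its group means, with a biological coefficient of variation of 18.8% against 49.1% over all genes.

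Cebpa (ENSMUSG00000034957, chromosome 7, 35119293 to 35121928, plus strand), the C/EBP factor of early myeloid progenitors, is an intronless gene and fell with LPS in both genotypes. Unstimulated WT libraries held 62.0 to 96.5 CPM (median 93.7) and AhR-deficient ones 134 to 178 CPM (median 173). The 6 AhR-deficient libraries all lay above the highest WT library, and Cebpa was the only one of the 9 without overlap in that comparison, against 5.15% of all genes. The log2 difference was 0.91 (standard error 0.20, adjusted p = 0.00408), a 1.88-fold difference that stayed under the 2-fold limit. Within the 3 runs it was 0.71, 0.98 and 1.06.

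After LPS Cebpa ranged from 19.5 to 36.2 CPM (median 30.7) in WT and from 25.1 to 54.2 CPM (median 31.4) in AhR-deficient libraries, which overlapped (log2 difference 0.38, adjusted p = 0.267). The decrease was −1.62 in WT (standard error 0.20, adjusted p = 6.9e-07) and −2.15 in AhR-deficient cells (standard error 0.20, adjusted p = 7.0e-09), with no overlap between states in either genotype. The interaction of −0.53 did not pass the correction (adjusted p = 0.435). Cebpa shares 51 exonic bases with the opposite-strand gene Gm45091, and the counting was strand-specific.

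Cebpb (ENSMUSG00000056501, chromosome 2, 167688915 to 167690418, plus strand), the inflammatory C/EBP factor, likewise without introns, was called in none of the 5 comparisons. Its libraries ranged from 52.3 to 239 CPM (median 89.3) in unstimulated WT, 42.1 to 290 (median 157) in unstimulated AhR-deficient, 49.4 to 293 (median 84.4) in WT LPS and 69.8 to 321 (median 126) in AhR-deficient LPS. Every group was spread widely, and in each group the 2 libraries of the second run (25 to 32) were the highest. The second run averaged 222, 249, 270 and 299 CPM in these groups against 55.5 to 128 CPM in the others. This run also held the highest length slopes, and the part of either in the spread was not tested. The 95% confidence interval of the LPS response in WT was −0.94 to 1.22 on the log2 scale. Cebpb shares 312 exonic bases with the opposite-strand gene Tmem189.

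Klf4 (ENSMUSG00000003032, chromosome 4, 55527143 to 55532466, minus strand), a zinc finger factor of monocyte differentiation, fell with LPS in both genotypes. It ranged from 7.94 to 64.8 CPM (median 24.4) in unstimulated WT and from 13.4 to 83.5 (median 61.0) in unstimulated AhR-deficient libraries. After LPS the ranges were 0.612 to 6.96 CPM (median 2.77) in WT and 0.929 to 13 CPM (median 4.34) in AhR-deficient libraries. Every LPS library lay below every unstimulated library of its genotype. The log2 fold changes were −3.20 in WT (standard error 0.72, adjusted p = 9.4e-04) and −3.22 in AhR-deficient cells (standard error 0.72, adjusted p = 7.0e-04). The genotype differences of 0.78 and 0.76 without and with LPS were not called (adjusted p = 0.834 and 0.617). Within the 3 runs they were 0.49, 0.50 and 1.49 without stimulation and 0.57, 0.73 and 0.64 after LPS, all higher in AhR-deficient libraries. With the length slope as a covariate the difference was 0.76 without stimulation (adjusted p = 0.00232) and 1.04 after LPS (adjusted p = 1.2e-04), which passed the 2-fold limit. Klf4 was the most variable of the 9, with a biological coefficient of variation of 76.2%, and was highest in the second run in all 4 groups.

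Maf (ENSMUSG00000055435, chromosome 8, 115682942 to 115707794, minus strand) encodes c-MAF, which binds the Il10 promoter and maintains non-dividing macrophages. It was nearly silent without stimulation, at 0.445 to 0.999 CPM (median 0.713) in WT and 0.281 to 0.656 CPM (median 0.473) in AhR-deficient libraries. After LPS it stood at 5.31 to 12.3 CPM (median 6.40) in WT and 3.01 to 35.7 CPM (median 9.07) in AhR-deficient libraries, above every unstimulated library. The increases were 3.35 (standard error 0.49, adjusted p = 6.8e-06) in WT and 4.80 (standard error 0.53, adjusted p = 6.6e-08) in AhR-deficient cells. The interaction of 1.45 had an unadjusted p of 0.0347 in edgeR and did not pass the correction (adjusted p = 0.301). Library 32, at 35.7 CPM, was the highest of the AhR-deficient LPS group, and without it the interaction was 0.81 (adjusted p = 0.644) and the response of AhR-deficient cells 4.17. Within runs the AhR-deficient libraries after LPS differed from WT by −0.84, 1.27 and 0.60, so the sign was not the same in each. Maf shares 440 exonic bases with the opposite-strand gene Gm15655.

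Egr2 (ENSMUSG00000037868, chromosome 10, 67535475 to 67542188, plus strand), a zinc finger factor of alternatively activated and alveolar macrophages, was higher in AhR-deficient cells after LPS. Unstimulated libraries held 15.9 to 30.5 CPM (median 29.1) in WT and 22.4 to 60.0 CPM (median 52.2) in AhR-deficient cells, and LPS libraries 21.9 to 59.1 (median 44.0) and 45.7 to 114 (median 101). Of the AhR-deficient libraries 5 of 6 lay above all WT libraries without stimulation and 4 of 6 after LPS. The log2 difference was 0.82 without stimulation (standard error 0.28, adjusted p = 0.101) and 1.13 after LPS (standard error 0.28, adjusted p = 0.00826). Without stimulation it was 0.71 to 0.96 with 1 library left out (edgeR, adjusted p from 0.0345 to 0.213) and 0.73 to 0.86 in the other settings. Within runs the difference after LPS was 1.19, 1.03 and 1.17. The call was lost without WT LPS library 38 (0.99) and with scaling by library totals (0.89, adjusted p = 0.0737). It was also lost without the 2 WT libraries with few Y-linked counts, 34 and 38 (just under the 2-fold limit).

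The LPS response of Egr2 was 0.62 in WT (adjusted p = 0.0894) and 0.93 in AhR-deficient cells (adjusted p = 0.00937), neither of which reached a 2-fold change. Without library 27, 39 or 40 the latter passed it (1.01 to 1.06). The interaction of 0.31 had an adjusted p of 0.953, with a 95% confidence interval from −0.51 to 1.13.

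Bhlhe40 (ENSMUSG00000030103, chromosome 6, 108660629 to 108666925, plus strand), a basic helix-loop-helix repressor that restrains Il10 and sustains macrophage proliferation, rose with LPS in both genotypes. Libraries held 69.5 to 203 CPM (median 176) in unstimulated WT, 50.4 to 187 (median 145) in unstimulated AhR-deficient, 161 to 492 (median 404) in WT LPS and 140 to 692 (median 227) in AhR-deficient LPS. States and genotypes all overlapped. The LPS response was 1.11 in WT (standard error 0.40, adjusted p = 0.0293) and 1.36 in AhR-deficient cells (standard error 0.40, adjusted p = 0.00748). Both calls were lost when libraries were scaled by their totals alone (0.77 in WT and 0.85 in AhR-deficient cells). The WT call was also lost with the length slope as a covariate (0.90) and without library 17, 21, 29, 30 or 33 (0.97 to 1.09). The genotype difference after LPS was 0.01, with a 95% confidence interval from −0.81 to 0.82, and its sign changed between settings. Bhlhe40 shares 118 exonic bases with the opposite-strand gene 0610040F04Rik.

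**Figure D2:**
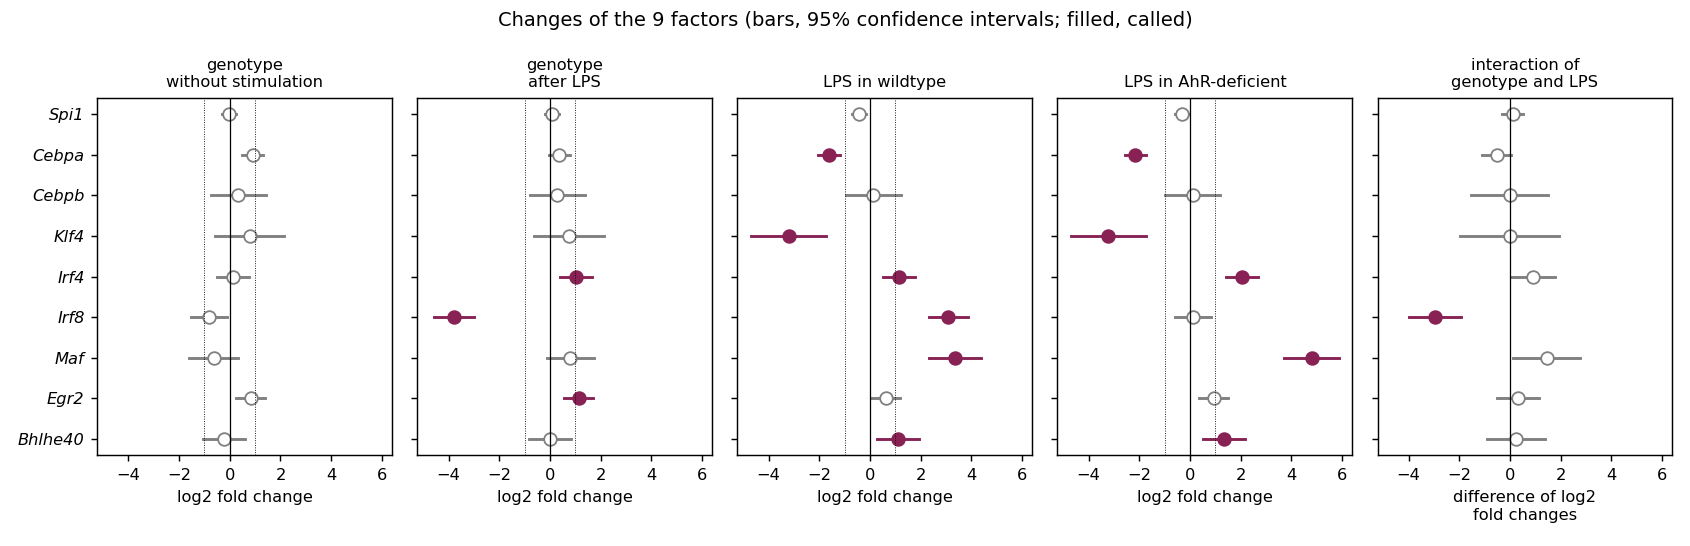
Log2 fold changes of the 9 factors in the 4 comparisons and the difference between the LPS responses, with 95% confidence intervals. Filled points were called, open points were not, and dotted lines mark the 2-fold limit. Irf8 stands at −3.79 between genotypes after LPS and at −2.97 in the interaction, while Cebpa and Klf4 fell and Maf and Irf4 rose with LPS in both genotypes.

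Over the 9 factors the median log2 fold change was 0.13 without stimulation and 0.38 after LPS between genotypes, against −0.01 and −0.05 over all genes. It was 0.62 for LPS in WT and 0.13 for LPS in AhR-deficient cells, against 0.03 and −0.03. With LPS, 4 of 9 did not overlap between states in WT (Cebpa, Maf, Irf8 and Klf4; 22.4% of all genes) and 4 of 9 in AhR-deficient cells (Cebpa, Maf, Irf4 and Klf4; 28.5%). The 2 sets of 4 differed by the exchange of Irf8 for Irf4. The comparisons share libraries, so their values are set side by side only.

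Levels were compared between genes as CPM per kb of exon. The order depends on this division by length, and the dependence of count on length differed between libraries. By mean CPM alone, Bhlhe40 at 161 was above Cebpb at 124 in unstimulated WT cells, and Irf8 at 111 was above Cebpa at 86.9. In unstimulated WT cells Spi1 was the highest at 88.2 ± 12.7 (SD, n = 6) CPM per kb, followed by Cebpb at 82.6 ± 51.7, Bhlhe40 at 34.3 ± 10.4 and Cebpa at 33 ± 5.07. The libraries of each of these neighbours overlapped. Irf8 at 15.8 ± 3.84, Irf4 at 13.3 ± 4.60, Klf4 at 10.4 ± 7.22 and Egr2 at 7.72 ± 1.71 CPM per kb came next, again overlapping from neighbour to neighbour. Maf was the lowest at 0.0874 ± 0.0333 CPM per kb, with no overlap with Egr2.

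In unstimulated AhR-deficient cells Cebpa at 62.0 ± 7.08 CPM per kb ranked after Cebpb and Spi1, separate from Spi1 above and Bhlhe40 below, and Irf8 at 8.96 ± 0.925 CPM per kb was next to last. In WT LPS libraries Irf8 had the highest mean of the 9 at 135 ± 55.8 CPM per kb, though its libraries overlapped with those of Cebpb at 90.8 ± 70.0. In AhR-deficient LPS libraries Irf8 ranked 7th at 9.80 ± 7.98 CPM per kb, and Irf4 at 60.6 ± 25 CPM per kb stood in its place among the upper 4, after Cebpb, Bhlhe40 and Spi1. Klf4 and Maf were the lowest 2 after LPS in both genotypes, at 1.12 ± 0.936 and 0.892 ± 0.317 CPM per kb in WT.

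**Figure D3:**
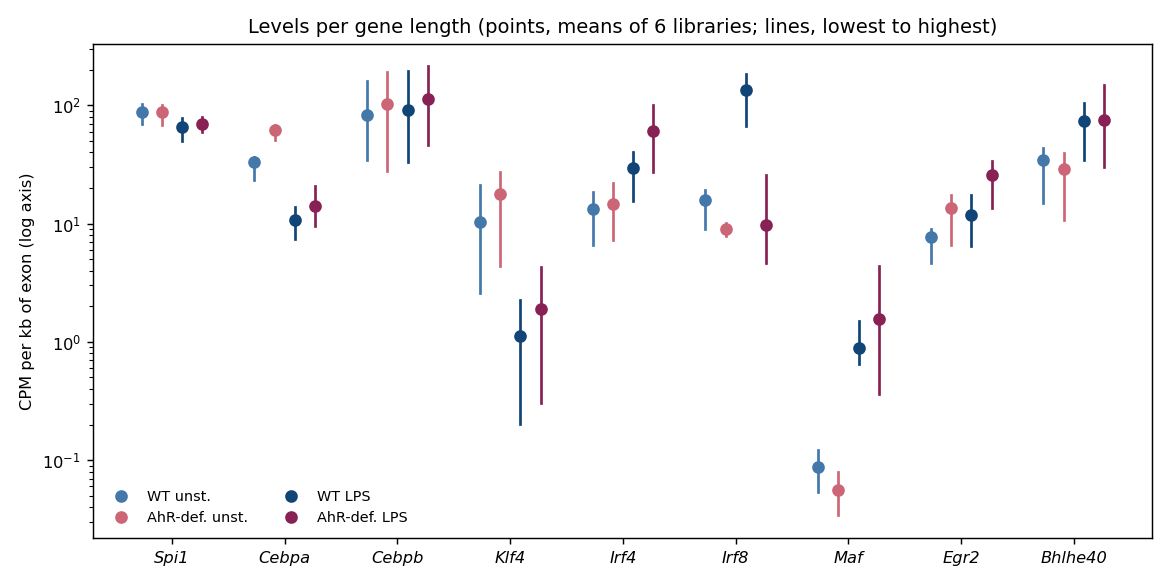
Levels of the 9 factors in CPM per kb of exon on a logarithmic axis. Points are means of 6 libraries and lines run from the lowest to the highest library of a group. Irf8 moved from 15.8 to 135 CPM per kb with LPS in WT and from 8.96 to 9.80 in AhR-deficient cells.

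Markers of other cell types also differed between genotypes. BMDM cultures with GM-CSF can hold dendritic cells as well as macrophages, and in bulk RNA fewer cells of a type and less RNA per cell cannot be told apart. The macrophage markers were abundant in every library, with a summed level of 8 genes from 14052 to 33719 CPM, mostly Lyz2. Of 8 tested alveolar macrophage markers, 1 was called higher and 0 lower in AhR-deficient cells without stimulation, and 2 higher and 0 lower after LPS. With LPS 5 of them were called lower in WT and 4 in AhR-deficient cells, and 1 higher in each. Their summed level ranged from 6763 to 9307 CPM in unstimulated WT, 7961 to 11025 in unstimulated AhR-deficient, 3757 to 8199 in WT LPS and 7116 to 11011 in AhR-deficient LPS libraries. Of 9 dendritic and Langerhans cell markers, 8 were tested, and 6 of them were called lower and 1 higher in AhR-deficient cells without stimulation, with 6 lower after LPS. Their summed level ranged from 91.4 to 282 CPM in unstimulated WT, 10.2 to 20 in unstimulated AhR-deficient, 594 to 2455 in WT LPS and 101 to 894 in AhR-deficient LPS libraries. Xcr1 was under 0.1 CPM on average over the 24 libraries. The sums rest on different genes in the 2 states, since Ccr7 averaged 36.9 and 1.45 CPM in unstimulated WT and AhR-deficient cells but 1358 and 319 CPM after LPS. With LPS in WT, where Irf8 rose, 3 of the 8 markers were called higher and 4 lower (median −1.46). With LPS in AhR-deficient cells, where Irf8 was not called, 1 was called higher and 3 lower.

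The WT libraries 25 and 33, with the lowest marker sums of 101 and 91.4 CPM among unstimulated WT, also had the lowest Irf8 levels there. Of the WT LPS libraries, 29 and 37 had the lowest marker sums (594 and 823 CPM) and the lowest Irf8 levels (485 and 474 CPM, against 927 to 1303 CPM in the other 4). The AhR-deficient LPS library 31, with the highest marker sum of its group at 894 CPM, had the highest Irf8 level at 183 CPM. WT LPS library 29 had a lower marker sum than library 31 but held more Irf8. The part of dendritic cells in the Irf8 difference was not tested. Neutrophil markers were also lower in AhR-deficient cells (7 of 7 tested without stimulation and 5 of 7 after LPS), with sums of 1677 to 12705 against 256 to 805 CPM without stimulation and 725 to 8432 against 141 to 1019 CPM after LPS. The WT libraries with the lowest Irf8 had the highest neutrophil marker sums of their group, 4995 and 12705 CPM in libraries 25 and 33 and 3608 and 8432 CPM in libraries 29 and 37. Within WT, low Irf8 thus went with high neutrophil sums, while between genotypes both were lower in AhR-deficient cells after LPS. Whether the 2 states share animals is not given, so these WT patterns may come from the same animals seen in both states. The part of neutrophils was not tested either. Of 8 tested mast cell and basophil markers, 5 were called lower in AhR-deficient cells in each state (median −2.12 without stimulation and −1.92 after LPS). Their sums ranged from 8.38 to 28.4 CPM in WT against 2.33 to 4.84 CPM in AhR-deficient cells without stimulation. After LPS the sums, mostly Hdc, which was not called between genotypes there, ranged from 333 to 516 against 534 to 836 CPM. B cell and T and NK cell markers stayed under 2 CPM in sum in every library.

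**Figure D4:**
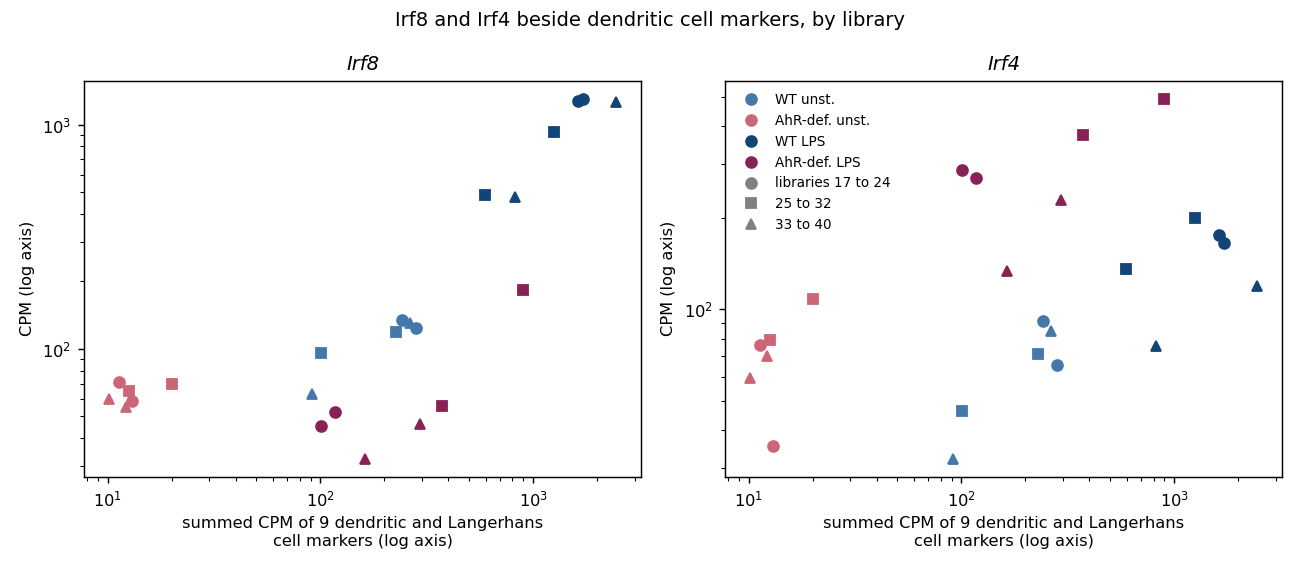
Irf8 (left) and Irf4 (right) in CPM against the summed CPM of 9 dendritic and Langerhans cell markers in the 24 libraries, both axes logarithmic. Colours mark groups and symbols the runs of library numbers. AhR-deficient LPS libraries, at 101 to 894 CPM of markers, lie low for Irf8 and high for Irf4.

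Relatives and partners of the 9 factors were counted in lists of 102 other transcription factors, of which 93 were tested. Between genotypes 8 of 93 were called without stimulation (8.60%) and 12 of 93 after LPS (12.9%), against 4.48% and 8.36% of all genes. With LPS 30 of 93 were called in WT (32.3%) and 39 of 93 in AhR-deficient cells (41.9%), against 24.9% and 30.8% of all genes. The same shares over all genes stand beside the counts of the single lists that follow. The IRF family responded to LPS in both genotypes, with 4 of 7 tested members called higher in each (median 1.23 in WT and 1.66 in AhR-deficient cells). Irf7, the amplifier of type I interferon, rose by 5.52 in WT (adjusted p = 3.2e-10) and by 8.16 in AhR-deficient cells (adjusted p = 1.6e-12). The responses of Irf7 and of Irf9, the DNA-binding subunit of the interferon-activated ISGF3 complex, were larger in AhR-deficient cells (interaction 2.64, adjusted p = 0.00221, and 0.78, adjusted p = 0.0215). Irf8 was thus the only IRF of 9 tested, members and list together, that was called lower between genotypes after LPS.

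In the ETS family, 4 of 17 tested genes were called after LPS between genotypes. Spic, the PU.1-related factor of red pulp macrophages, was higher in AhR-deficient cells by 2.02 (adjusted p = 5.8e-04), while Etv1 and Fli1 were lower by −1.77 and −1.60 (adjusted p = 0.015 and 0.0347). Spib, the other close relative of PU.1 and a factor of plasmacytoid dendritic cells and B cells, was lower at 0.0101 ± 0.0248 (SD, n = 6) CPM against 0.421 ± 0.361 CPM in WT. Spi1 itself did not share in these differences.

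In the C/EBP family, of which 4 genes were tested, Cebpe, the factor of late granulocytes, was lower in AhR-deficient cells by −2.73 without stimulation (adjusted p = 7.7e-07) and by −1.88 after LPS (adjusted p = 3.8e-05). Cebpd fell with LPS in both genotypes, by −1.10 and −1.29 (adjusted p = 9.7e-06 and 8.2e-07), the direction of Cebpa. Among 5 tested MAF genes, the small MAF Maff rose by 1.75 in WT and 3.03 in AhR-deficient cells, with an interaction of 1.28 (adjusted p = 2.2e-06).

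Of 11 tested KLF genes, Klf6 rose with LPS in WT (1.22, adjusted p = 9.2e-07) and in AhR-deficient cells (1.71, adjusted p = 3.8e-09), opposite to Klf4. In AhR-deficient cells 4 others were called lower, with Klf10, Klf8 and Klf11 at −1.13, −1.12 and −1.06. Klf10 and Klf11 also fell in WT, under the 2-fold limit (−0.90 and −0.84, adjusted p = 1.8e-06 and 0.00553), while Klf8 stood at −0.09. The interactions of Klf10, Klf8 and Klf11 (−0.23, −1.04 and −0.22) were not called. Among EGR genes and NAB corepressors, Egr3 fell with LPS by −2.75 in WT and −3.07 in AhR-deficient cells (adjusted p = 0.00124 and 5.5e-04), and 0 of 4 tested genes were called between genotypes by edgeR. Among 13 bHLH and ID genes, Bhlhe41, the closest relative of Bhlhe40, fell with LPS by −1.62 and −1.68 (adjusted p = 0.00296 and 0.00178), opposite to Bhlhe40. The lysosomal regulator Tfeb fell by −1.53 and −1.66 in the same comparisons.

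AP-1 and BATF proteins, the DNA-binding partners of IRF4 and IRF8, had 4 of 11 called higher with LPS in WT and 5 of 11 in AhR-deficient cells. Batf3, the partner of IRF8 in type 1 dendritic cells, rose with LPS by 2.31 in WT and 1.46 in AhR-deficient cells, and it was higher in unstimulated AhR-deficient cells (1.23, adjusted p = 7.8e-04), unlike Irf8. Atf3, a stress-induced repressor, was higher in AhR-deficient cells after LPS by 2.32 (adjusted p = 2.0e-08). Of 20 tested other haematopoietic regulators, 3 were called lower after LPS in AhR-deficient cells, namely Gata2 of mast cells and progenitors (−5.18, adjusted p = 5.9e-05), Zbtb46 of conventional dendritic cells (−1.77, adjusted p = 0.0071) and Myb of progenitors (−2.55, adjusted p = 0.0377). Pparg, the factor of alveolar macrophages, fell with LPS by −1.53 and −2.21 in WT and AhR-deficient cells. Gata2, Zbtb46 and Pparg are also on the marker lists of mast cells and basophils, dendritic cells and alveolar macrophages, in this order.

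Genes known as targets of the factors were counted in 4 lists. Of 12 PU.1 target genes, 0 were called without stimulation by edgeR and 1 after LPS between genotypes, Fcgr1 (1.24, adjusted p = 0.00308), which encodes the high-affinity IgG receptor. With LPS 6 of 12 rose in WT (median 1.12) and 7 of 12 in AhR-deficient cells, led by the LPS coreceptor Cd14 at 5.32 and 5.60, while Spi1 did not reach the limit in the other direction.

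Of 8 tested C/EBP targets, 5 were called lower without stimulation in AhR-deficient cells (median −2.58), in which Cebpa was 1.88-fold higher. They were Lcn2 (−3.24, adjusted p = 6.3e-04), Saa3 (−1.93, adjusted p = 8.2e-04) and the granule genes Camp (−3.57), Ltf (−3.46) and Elane (−3.50). The last 3 are also on the neutrophil marker list, and Elane is named outside the rule for named genes, after its values were seen. After LPS 4 of the 8 were called lower, namely Elane (−6.74), Ltf (−3.72), Saa3 (−1.38) and Lcn2 (−1.65), and 1 higher (median −1.51). The higher one was Il6 (1909 ± 448 against 587 ± 229 CPM, SD, n = 6, log2 fold change 1.70, adjusted p = 0.00153).

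Of 9 targets of IRF4 and IRF8, 3 were called between genotypes after LPS, in both directions. Cst3, the abundant cystatin C gene of dendritic cells, was lower at 701 ± 440 against 2495 ± 914 CPM (SD, n = 6, log2 fold change −1.83, adjusted p = 2.1e-04), and Ciita, the master regulator of MHC class II genes, was lower by −2.78 (adjusted p = 0.0463). Il12b, the IL-12 p40 gene that IRF8 is known to drive, was higher at 142 ± 161 against 42.6 ± 7.98 CPM (log2 fold change 1.74, adjusted p = 0.023), in the libraries in which Irf8 was 13.8-fold lower. Its LPS response was larger in AhR-deficient cells (interaction 4.94, adjusted p = 0.00115). Without stimulation 2 of the 9 were called lower in AhR-deficient cells, Cst3 (−1.80, adjusted p = 4.6e-04) and Il12b (−3.20, adjusted p = 0.00401), and 1 higher (median −0.42). The higher one was Ccl17, a chemokine gene induced by IRF4 (2.38, adjusted p = 7.2e-05), where Irf4 differed by 0.13.

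Of 5 tested MAF targets, Il10 had a count of 0 in every unstimulated library and 2.80 ± 0.954 CPM in WT and 2.46 ± 1.49 CPM (SD, n = 6) in AhR-deficient libraries after LPS. The complement genes C1qa, C1qb and C1qc fell with LPS in both genotypes, by −2.21, −1.70 and −2.15 in WT, while Maf rose. The genotype calls of this list are not reported here.

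The tested genes whose log2(CPM + 0.5) values over the 24 libraries lay closest to each factor were found by the root mean square difference after centring, among 12714 genes with a mean of at least 1 CPM. For Irf8 these were Strip2 and Slc25a29, both at a distance of 0.47. Strip2 averaged 1.90, 0.584, 16.6 and 1.01 CPM and Slc25a29 1.41, 0.367, 13.3 and 0.129 CPM in unstimulated WT, unstimulated AhR-deficient, WT LPS and AhR-deficient LPS libraries, peaking where Irf8 did. For Irf4 they were Pfkp and Daxx (0.26 and 0.32), and for Egr2 Kcnn4 and Cndp2 (0.23 and 0.27), of which Kcnn4 averaged 37.3, 60.1, 49.2 and 115 CPM in the same order. Cebpa lay closest to Ak8 and Sord (0.26 and 0.31), Klf4 to Man2b1 and Atad2 (0.60 and 0.61), and Maf to Cdkn1a and Penk (0.52 and 0.54). Spi1 lay closest to Hectd3 and Narfl (0.14 and 0.15), Cebpb to Gripap1 and Atxn1 (0.25 and 0.27), and Bhlhe40 to Zfp36 and Dcp1a (0.24 and 0.27).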

How the data were processed

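Raw counts per gene were deposited by the authors for 24 libraries (poly(A)-selected, strand-specific RNA-seq), made with GSNAP alignment to mm10, Ensembl 98 annotation and featureCounts 2.0.1 on uniquely aligned reads. The count table held 55421 genes and 92 spike-ins, which had 1 count in all and were left out. Symbols matched 55154 genes (GENCODE, GRCm38). Counts were fitted with edgeR 4.0.16 (R 4.3.3; filterByExpr, TMM, robust quasi-likelihood F-test) with 1 coefficient per group over all 24 libraries, and p-values were adjusted by Benjamini-Hochberg over 16593 genes. A call needed a 2-fold change with adjusted p ≤ 0.05 (no minimum fold for the interaction). DESeq2 1.42.0 and limma 3.58.1 (voom) were alternatives. The code was tested on simulated data. Depth was 45106052 to 76992663 counts. Runs of 8 consecutive library numbers are not called batches by the labels. The labels do not tie libraries to animals, while the study's methods give separate animals within a group, and whether the 2 states share animals is not given in the sources used here. Libraries of a group differed by more than sampling noise (chi-square per degree of freedom from 17.5). The genes and lists were chosen with earlier results of these data known. All 9 factors were named in each comparison, and of each list at most 4 called genes by smallest p. The symbols Ddit3 and Siglec5 gave no single match and were not used here. Some listed genes are not reported here.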

Additional observations from a re-analysis of the deposited data

Results flagged for a closer look

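The LPS response of Irf8 differed between genotypes by −2.97 on the log2 scale (edgeR quasi-likelihood test of the interaction, adjusted p = 7.8e-04), with 8.60-fold higher levels after LPS in WT cells and 6 of 6 AhR-deficient LPS libraries below the lowest WT LPS library.

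In 2 of 36 groups of 6 libraries 1 library lay apart from the others by Dixon's ratio (95% critical value), where chance gives about 1 in 20. Irf8 in AhR-deficient LPS library 31 was at 183 CPM (ratio 0.689), the library that also had the highest dendritic cell marker sum of its group, and Bhlhe40 in WT unstimulated library 33 was at 69.5 CPM (ratio 0.711), the library with the lowest level of its group for 8 of the 9 factors and with the highest neutrophil marker sum of its group (12705 CPM against 1677 to 4995 CPM in the others).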

How the results depend on the processing

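The number of factors called between genotypes without stimulation was 0 in all other settings and 1 (Cebpa) with no minimum fold change. After LPS it was 3, but 1 (Irf8) with total library size (no TMM) or without the 2 WT libraries with under 10 Y-linked counts (34 and 38). It was 2 by limma-voom, 4 with the length slope as a covariate, and 1 to 3 with 1 library left out in turn (1 without WT LPS library 38). The interaction count was 1, but 3 with the length slope as a covariate, which added Irf4 (1.01) and Egr2 (0.51). With 1 library left out the counts were 0 between genotypes without stimulation, 5 to 6 for LPS in WT, 5 to 6 for LPS in AhR-deficient cells and 1 for the interaction. Irf8 kept its calls between genotypes after LPS (−4.37 to −3.65 in edgeR with 1 library left out), with LPS in WT (2.99 to 3.25) and in the interaction (−3.56 to −2.84). Total library size moved the median of all genes to −0.26 between genotypes after LPS, −0.31 for LPS in WT, −0.52 for LPS in AhR-deficient cells and −0.18 for the interaction. With it, Irf4 (0.80) and Egr2 (0.89) between genotypes after LPS, Irf4 (0.81) and Bhlhe40 (0.77) with LPS in WT and Bhlhe40 (0.85) with LPS in AhR-deficient cells were not called. Irf4 after LPS was also not called by limma-voom (0.99), and in the fit with the length slope Klf4 was called there (1.04) and Bhlhe40 with LPS in WT was not (0.90). The causes were not tested.

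Signs changed only for differences that were not called. Between genotypes these were Spi1 without stimulation (0.01 with only the 12 libraries compared, −0.08 to 0.05 with 1 library left out), Irf4 without stimulation (−0.02 to 0.27 with 1 left out), Spi1 after LPS (−0.15 with total library size), Cebpb after LPS (−0.01 to 0.67 with 1 left out) and Bhlhe40 after LPS (−0.25 with total library size, −0.17 by limma-voom, −0.14 with the run as a factor, −0.01 with the length slope, −0.10 without the Y-low libraries, and −0.31 to 0.16 with 1 left out). For LPS these were Cebpb in WT (−0.22 with total library size, −0.20 with the length slope, −0.24 to 0.43 with 1 left out), Cebpb in AhR-deficient cells (−0.41 with total library size, −0.01 with the run, −0.18 to 0.39 with 1 left out) and Irf8 in AhR-deficient cells (−0.34 with total library size, −0.12 by limma-voom, −0.44 to 0.28 with 1 left out). In the interaction these were Spi1 (−0.05 with total library size), Cebpb (0.12 by limma-voom, 0.02 with a mean of at least 1 CPM, 0.33 with the length slope, −0.33 to 0.35 with 1 left out), Klf4 (0.02 with a mean of at least 1 CPM, 0.28 with the length slope, 0.02 without the 4 libraries with a length slope under 0.2, a setting chosen after seeing the data, and −0.45 to 0.31 with 1 left out) and Bhlhe40 (−0.08 to 0.39 with 1 left out).

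No paired analysis was run, because the labels give each library a number of its own, 17 to 40, and tie no library of one group to one of another. A pairing by the order of numbers was not tested. If the 2 states share animals, the LPS comparisons leave that pairing out. The fit with a term for the 3 runs of 8 numbers gave the same number of factors called in each of the 5 comparisons. Cebpb and Klf4 had wide spreads. The 95% confidence interval of the genotype difference of Klf4 without stimulation, −0.58 to 2.14 on the log2 scale, spans differences of over 2-fold.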
